A study of Mus musculus with 4 samples.

Results

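Metallothioneins and antioxidant enzymes were followed across the cell lineages of control and LATS1/2-deleted mouse mammary glands through 10 genes, namely *Mt1*, *Mt2*, *Gpx1*, *Gpx2*, *Gpx3*, *Nqo1*, *Hmox1*, *Txnrd1*, *Gclc* and *Gclm*. Each symbol matched 1 of the 28693 gene rows. The group was put together because *Mt1* and *Gpx2* were higher in LATS1/2-KO basal cells and because *Gpx3* marked the estrogen receptor positive (ER+) luminal cells of control glands. Values from those contrasts are therefore given as a description with no test, which covers all 10 genes in basal cells and *Gpx3* in luminal ER+ cells.

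Metallothioneins are small cysteine-rich proteins that bind zinc and copper. Their genes are induced by metals and oxidative stress through the metal-responsive factor MTF1, and also by glucocorticoids. The glutathione peroxidases GPX1, GPX2 and GPX3 are selenium-dependent enzymes that reduce peroxides with glutathione. Glutathione itself is made in a rate-limiting step by glutamate-cysteine ligase, of which *Gclc* encodes the catalytic and *Gclm* the modifier subunit. NQO1, heme oxygenase 1 (*Hmox1*), thioredoxin reductase 1 (*Txnrd1*) and both ligase subunits are known targets of the stress factor NRF2, which binds antioxidant response elements.

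Single cells from 2 CTL and 2 LATS1/2-KO mice were profiled by droplet 3' RNA-sequencing, 1 library per mouse. CTL mice carried floxed *Lats1* and *Lats2* alleles on both copies and 1 copy of a Cre-dependent EYFP reporter at R26, with no Cre. The LATS1/2-KO mice carried the same floxed alleles plus *Krt8*-CreERT2, a tamoxifen-inducible recombinase expressed from a luminal keratin promoter. Their EYFP reporter was heterozygous in replicate 1 and homozygous in replicate 2. All mice, controls included, received 2 mg tamoxifen on 5 days, and glands were taken 7 days after the last dose, dissociated by enzymes and sorted for live cells. The study gives the mice as adult and nulliparous, and no age for each library was used here. By this design luminal cells were targeted and basal and stromal cells were not, and EYFP marks cells in which Cre had been active. Each mouse was its own library, so a difference in handling between the groups cannot be told apart from genotype.

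After filtering, 18200 cells remained, with 3515 to 5272 cells and 38792520 to 46810771 unique molecular identifiers (UMIs) per library. Cells were assigned to a lineage by the summed level of marker genes, none of which was one of the 10 genes. The 4 libraries held 143 to 1395 luminal ER+ cells, 1869 to 2745 luminal ER- cells, 147 to 315 basal cells, 24 to 885 fibroblasts, 35 to 222 endothelial cells and 23 to 161 lymphocytes. Macrophages (4 and 7 cells), perivascular cells and adipocytes were too few in CTL for a test. Clustered without gates, luminal and basal cells of the 2 conditions fell almost entirely into different clusters. A cluster named basal held 0 and 0 cells of the CTL replicates and 360 and 469 of the LATS1/2-KO replicates. The other basal cluster held 196 and 160 CTL cells and 4 and 0 LATS1/2-KO cells. Of the *Krt8*-high LATS1/2-KO cells, 745 and 664 carried neither the ER- nor the ER+ marker level, against 95 and 48 in CTL. Within 1.5 times the marker limit lay 7.94% of LATS1/2-KO luminal ER-, 11.8% of luminal ER+ and 9.27% of basal cells, against 0%, 2.31% and 1.33% in CTL. *Lats1*, 1 of the deleted genes, measured 25.6 and 25.4 UMIs per 1000000 UMIs of the sum (CPM) in CTL and 15.6 and 18.9 CPM in LATS1/2-KO luminal ER- cells, a log2 fold change of -0.93 ± 0.12 (SE, edgeR adjusted p = 0.000613). *Lats2* read higher there, at 28.5 and 29.7 CPM against 14.9 and 16.7 CPM (edgeR adjusted p = 0.0057). Luminal ER+ cells had *Lats1* at 21.5, 22.6, 23.7 and 18.9 CPM (edgeR adjusted p = 0.952). Whether the counted 3' end lies in the deleted part was not tested, so these levels check the genotype labels only in part. Libraries shared at most 12 cell barcodes.

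Levels are printed as plain CPM of the summed UMIs of 1 lineage in 1 library, always in the order CTL replicates 1 and 2, then LATS1/2-KO replicates 1 and 2. Fold changes come from edgeR, with 2 mice per group, and additionally scale the libraries by the trimmed mean of M-values (TMM), where a gene passed at an adjusted p (Benjamini-Hochberg over all tested genes) under 0.05. In luminal ER- cells this scaling lowered every log2 fold change by 0.36 against plain CPM. In the other 5 lineages this lowering was between -0.11 (fibroblasts, where fold changes were raised) and 0.12 (basal cells). Free RNA from broken cells reaches every droplet, so each level was also set beside an estimate of free RNA. The estimate was the library's mean level times a share, 2.53% to 19.8% over 6 lineages and 4 libraries, taken from genes that a lineage does not make. Of these 24 sums, all were above this estimate for *Mt2*, *Gpx1* and *Gclc*, and 23 for *Mt1*, *Hmox1*, *Txnrd1* and *Gclm*. *Nqo1* was above it in 21, and *Gpx2* and *Gpx3* in 17.

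*Mt1* and *Mt2* lie next to each other on mouse chromosome 8 and are transcribed in the same direction, *Mt2* at 94172664 to 94173568 and *Mt1* at 94179082 to 94180327 (GRCm38, GENCODE), with 6418 bases between their starts. The 250 bases before each gene's RefSeq start, which is not the same base as the GENCODE start, are shown. Both genes read higher in LATS1/2-KO in every lineage tested, though neither was called in lymphocytes with free RNA subtracted. Capitals mark the core of the metal response element, the motif that MTF1 is known to bind, spelled TGCACNC or TGCGCNC and searched on both strands with overlaps allowed. Both sequences are from RefSeq on GRCm38.p6, plus strand, and the last bases of the *Mt1* window lie inside the gene as GENCODE gives it.

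Mt1 at chr8:94178839-94179088: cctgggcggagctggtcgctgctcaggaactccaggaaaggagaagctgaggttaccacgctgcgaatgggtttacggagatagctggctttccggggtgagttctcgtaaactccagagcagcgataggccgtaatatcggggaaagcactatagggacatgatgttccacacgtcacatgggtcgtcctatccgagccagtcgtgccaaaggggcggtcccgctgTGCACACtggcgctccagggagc

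Mt2 at chr8:94172368-94172617: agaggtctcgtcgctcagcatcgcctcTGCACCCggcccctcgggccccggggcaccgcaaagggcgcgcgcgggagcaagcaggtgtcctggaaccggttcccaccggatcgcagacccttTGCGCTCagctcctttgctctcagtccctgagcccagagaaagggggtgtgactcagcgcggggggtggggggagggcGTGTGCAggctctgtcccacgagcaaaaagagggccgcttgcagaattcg

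The *Mt1* window held 1 match and the *Mt2* window 3 matches. Bases outside the windows, those after the RefSeq start included, were not searched, so these are not counts for the whole promoters. Of 32851 RefSeq promoter windows of this length, 21.4% held at least 1 match to either spelling. Of the members, 8 had an entry in the promoter table, and *Gclm* was the only other one with a match, 2 of the form TGCGCNC. The core of the antioxidant response element, TGACNNNGC on either strand, was found in 10.2% of all windows, once each in the windows of *Mt2* and *Gclm* and in 1 of 3 start sites of *Txnrd1*, and not in those of *Nqo1*, *Gpx1*, *Gpx2* or *Gpx3*. These letter matches describe the windows and were not tested as binding sites.

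*Mt1* and *Mt2* were higher in the LATS1/2-KO libraries in every lineage that was tested, including fibroblasts and endothelial cells, in which *Krt8*, and with it the Cre, is not expected to be active. For lymphocytes, neither gene was called once free RNA was subtracted. In luminal ER- cells *Mt1* measured 117, 173, 602 and 995 CPM. Both LATS1/2-KO libraries lay above both CTL libraries, and the log2 fold change was 2.09 ± 0.26 (SE, edgeR adjusted p = 0.000475). *Mt2* measured 14.2, 16.8, 142 and 282 CPM in the same cells, again without overlap, with a log2 fold change of 3.41 ± 0.31 (SE, edgeR adjusted p = 0.000102). The free RNA estimate for *Mt1* was 16.3 and 10.3 CPM in CTL and 129 and 156 CPM in LATS1/2-KO luminal ER- cells, below the measured level in each library, and with it subtracted the log2 fold change was 2.02. Summed fibroblast markers in these sums read 15, 10.4, 235 and 240 CPM and summed basal markers 50, 45, 1371 and 925 CPM, and their part in the result was not tested. *Mt1* was seen in 42.5% and 52.3% of CTL and in 86.9% and 93.0% of LATS1/2-KO luminal ER- cells. With every cell thinned to 2000 UMIs these shares were 16.6%, 22.7%, 56.5% and 74.7% (exact 95% interval of the last 72.6% to 76.6%, counting error only).

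Luminal ER+ cells had a higher *Mt1* level than ER- cells in all 4 libraries, at 747, 486, 3586 and 4391 CPM. The rise from CTL to LATS1/2-KO was 2.64 ± 0.23 on the log2 scale (SE, edgeR adjusted p = 0.00089), and no library of 1 group reached the other. *Mt2* stood at 185, 156, 1499 and 2043 CPM there, with a log2 fold change of 3.32 ± 0.18 (SE, edgeR adjusted p = 0.000208). The difference between the 2 luminal lineages in this contrast, tested as an interaction, was 0.51 ± 0.38 for *Mt1* (SE, edgeR adjusted p = 0.422) and -0.13 ± 0.37 for *Mt2* (SE, edgeR adjusted p = 0.866). Neither difference passed the threshold, and with CTL replicate 1 left out that of *Mt1* did, at 1.19 (edgeR adjusted p = 0.0461).

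**Figure D1:**
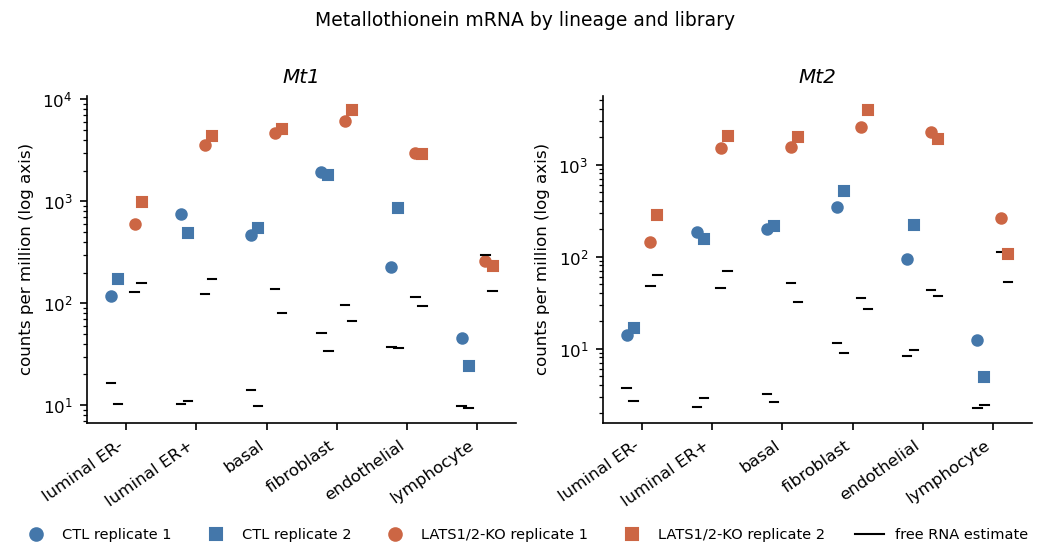
*Mt1* (left) and *Mt2* (right) in UMIs per 1000000 (CPM) on a log axis, for 6 lineages and 4 libraries (circles replicate 1, squares replicate 2, blue CTL, orange LATS1/2-KO), with a black bar at each library's free RNA estimate. LATS1/2-KO points sit above CTL points in every lineage, and in lymphocytes the *Mt1* level of LATS1/2-KO replicate 1, 260 CPM, lies under its free RNA bar at 299 CPM.

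Fibroblasts had the highest CTL level of *Mt1* among the 6 lineages, 1941 and 1825 CPM, and read 6162 and 7779 CPM in LATS1/2-KO (log2 fold change 2.00 ± 0.28, SE, edgeR adjusted p = 0.00705). *Mt2* in fibroblasts went from 346 and 511 CPM to 2527 and 3866 CPM (log2 fold change 3.04 ± 0.35, SE, edgeR adjusted p = 0.0035). Neither gene's groups overlapped, and CTL replicate 2 gave 24 fibroblasts. The gate did not separate the inflammatory and myofibroblast-like fibroblasts that the study describes. The study found the myofibroblast-like type too rare in control glands for its signaling analysis. The part of this difference in fibroblast type in the fibroblast contrasts was not tested. Without CTL replicate 1, neither gene passed, with edgeR adjusted p = 0.189 for *Mt1* and 0.103 for *Mt2*, and *Mt1* also missed without CTL replicate 2 (edgeR adjusted p = 0.0846), while the log2 fold changes were between 1.98 and 2.90.

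In endothelial cells *Mt1* measured 224 and 867 CPM in CTL and 2998 and 2911 CPM in LATS1/2-KO, a log2 fold change of 2.50 ± 0.45 (SE, edgeR adjusted p = 0.00791). *Mt2* measured 93.5 and 219 CPM against 2261 and 1900.5 CPM, a log2 fold change of 3.79 ± 0.33 (SE, edgeR adjusted p = 0.000271). The CTL libraries differed from each other for both genes, and still no CTL value reached a LATS1/2-KO value. DESeq2 left *Mt1* at an adjusted p of 0.0721.

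Lymphocytes had the lowest *Mt1* level, 45.7 and 24.3 CPM (22 and 5 UMIs) in CTL and 260 and 231 CPM (14 and 37 UMIs) in LATS1/2-KO. The log2 fold changes of 2.64 ± 0.44 for *Mt1* and 3.86 ± 0.61 for *Mt2* passed (SE, edgeR adjusted p = 0.00384 and 0.00261). The free RNA estimate of *Mt1* in the LATS1/2-KO libraries was 299 and 131 CPM, above the level of replicate 1 and below that of replicate 2, and after subtraction *Mt1* had too few counts to be tested. *Mt2* measured 12.5, 4.85, 260 and 106 CPM, above its LATS1/2-KO estimates of 112 and 52.4 CPM, and after subtraction its log2 fold change of 3.66 did not pass (edgeR adjusted p = 0.209). *Mt1* also missed the threshold without CTL replicate 2 (edgeR adjusted p = 0.11), and *Mt2* without LATS1/2-KO replicate 1 (edgeR adjusted p = 0.105).

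Basal cells, on which *Mt1* was chosen, are described without a test. *Mt1* read 472, 547, 4691 and 5153 CPM and *Mt2* 199.8, 214, 1563 and 2012 CPM. The median *Mt1* level per basal cell was 2.21 and 1.69 per 10000 UMIs in CTL and 38.7 and 40.0 in LATS1/2-KO. Among LATS1/2-KO basal cells, 99.2% and 99.7% held a *Mt1* UMI, and 97.5% and 98.7% did after thinning. Macrophages, without a test because CTL held 11 of them, read 349 and 594 CPM of *Mt1* (8 and 26 UMIs) in CTL and 1492 and 1467 CPM in LATS1/2-KO. The free RNA share of the CTL macrophage sums was 2.76% and 54.5%. The 25 adipocyte-gated cells, all from LATS1/2-KO replicate 2, had the highest *Mt1* level of any sum, 30141 CPM.

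Within LATS1/2-KO libraries the order of *Mt1* from high to low was fibroblasts, basal, luminal ER+, endothelial, luminal ER- cells and lymphocytes. In CTL it was fibroblasts first, then luminal ER+, basal and endothelial cells with overlapping values, then luminal ER- cells and lymphocytes. No test was made of either order. Over 33 sums of at least 20 cells, the genes whose log2 levels followed *Mt1* most closely were *Mt2* (Pearson r = 0.957), *Wipi1* (r = 0.882) and *Lamp2* (r = 0.842), out of 8789 genes. The sums share libraries and mice, so these values only describe the pattern.

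Genes of the dissociation and stress response were measured beside the metallothioneins, since both can respond to tissue handling. Of 17 such genes, immediate early and heat shock genes among them, 4 rose and 11 fell in luminal ER- cells, where 30.4% of all tested genes rose and 28.0% fell. The counts were 5 and 6 in luminal ER+ cells, beside 14.7% and 14.0% of all genes, and 2 and 8 in endothelial cells, beside 3.24% and 3.87%. Fibroblasts had 2 higher and 0 lower (4 lower at an unadjusted p under 0.05, 1 by DESeq2), beside 2.00% and 2.15%, and lymphocytes 3 higher and 0 lower (0 lower also unadjusted and by DESeq2), beside 1.35% and 0.348%. Basal cells had 3 higher and 10 lower, beside 16.9% and 16.7%. Their part in the metallothionein result was not tested.

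*Gpx2*, the glutathione peroxidase known mainly from the gut lining, was near absent from CTL glands and was found in LATS1/2-KO basal cells. Its sums in basal cells were 2, 3, 532 and 627 UMIs, or 3.70, 4.97, 357 and 310 CPM. The pooled ratio of LATS1/2-KO to CTL was 75.5 (exact 95% interval 32.3 to 233, counting error only), and it is given as a description because the gene was chosen on this contrast. *Gpx2* UMIs were found in 1.30% and 2.04% of CTL and 59.8% and 58.1% of LATS1/2-KO basal cells, and after thinning in 1.46%, 0%, 33.7% and 35.6%. Luminal ER- cells of the same LATS1/2-KO libraries, which are deeper, held a *Gpx2* UMI in 2.46% and 1.77%. The basal level was 15.7 and 15.4 times the mean level of the whole library.

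Outside basal cells *Gpx2* stayed low. It measured 0.12, 0.19, 5.15 and 2.22 CPM in luminal ER- cells (3, 4, 94 and 46 UMIs), a log2 fold change of 4.17 ± 0.61 (SE, edgeR adjusted p = 0.000984). The free RNA estimate there was 1.93 and 1.36 CPM in the LATS1/2-KO libraries, below the measured levels, and with it subtracted the log2 fold change of *Gpx2* was 3.39 (edgeR adjusted p = 0.00955). In luminal ER+ cells the values were 0.75, 0.45, 5.28 and 2.61 CPM (14, 9, 23 and 4 UMIs) and the log2 fold change was 2.79 ± 0.53 (SE, edgeR adjusted p = 0.0111), which did not pass without LATS1/2-KO replicate 1 (edgeR adjusted p = 0.188). Fibroblasts and endothelial cells held no *Gpx2* UMI in CTL, which allows up to 8.65 CPM and 7.0 CPM over the group, and read 0.95 to 6.06 CPM in LATS1/2-KO, under that limit. Summed basal markers moved with the *Gpx2* reading, at 1371 and 925 CPM in the LATS1/2-KO luminal ER- sums and at 35.6, 28.8, 302 and 275 CPM in the luminal ER+ sums, and their part in it was not tested. The genes most like *Gpx2* over the 33 sums were *Moxd1* (r = 0.808), *Krt17*, a basal keratin (r = 0.769), and *Reep5* (r = 0.759).

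*Gpx3*, a secreted glutathione peroxidase, was highest in CTL luminal ER+ cells, for which it was chosen. Its level there was 5441 and 5317 CPM in CTL and 1559 and 984 CPM in LATS1/2-KO, a log2 fold change of -2.12 ± 0.23 (SE) given without a test. In CTL, 98.0% and 98.5% of luminal ER+ cells held a *Gpx3* UMI, against 62.7% and 56.6% in LATS1/2-KO. Thinned to 2000 UMIs the shares were 95.3%, 94.8%, 47.1% and 35.2%. The median level per cell fell from 53.7 and 48.3 per 10000 UMIs to 1.73 and 0.93, and the upper quartile of LATS1/2-KO cells read 15.7 and 6.59 per 10000. Summed luminal ER+ markers, several of which set the gate, were 6869, 5853, 6894 and 6157 CPM in the same sums. The median level of the gate's ER+ markers per luminal ER+ cell was 47.0 per 10000 UMIs in CTL and 16.1 in LATS1/2-KO, and its part in the *Gpx3* difference was not tested.

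Fibroblasts read 772, 456, 282 and 345 CPM of *Gpx3*, above free RNA estimates of 297, 255, 14.5 and 2.89 CPM, and its log2 fold change of -0.88 ± 0.32 did not pass (SE, edgeR adjusted p = 0.168). Without LATS1/2-KO replicate 2 it did, at -1.08 (edgeR adjusted p = 0.00633). In luminal ER- cells *Gpx3* read 66.5, 58.2, 13.5 and 9.61 CPM, and the log2 fold change of -2.80 ± 0.18 passed (SE, edgeR adjusted p = 2.33e-05). The free RNA estimates were 94.9, 77.7, 19.6 and 6.70 CPM, at or above the measured level in 3 of 4 libraries, and after subtraction too few counts were left for a test. This fall was therefore not read as a change in luminal ER- cells. Endothelial cells read 74.8, 60.6, 18.1 and 16.2 CPM against estimates of 215, 275, 17.4 and 4.01 CPM. Both CTL libraries lay under the estimate and both LATS1/2-KO libraries above it. The log2 fold change of -1.91 ± 0.38 passed (SE, edgeR adjusted p = 0.0128) and was likewise not read as a change in endothelial cells. That call was lost without either LATS1/2-KO replicate (edgeR adjusted p = 0.0649 to 0.0856). Lymphocytes read 174, 141, 37.1 and 18.7 CPM, the latter 2 on 2 and 3 UMIs, with a log2 fold change of -2.72 ± 0.58 (SE, edgeR adjusted p = 0.0248) that did not pass with free RNA subtracted (edgeR adjusted p = 0.234), by DESeq2 (adjusted p = 0.229), without CTL replicate 1 (edgeR adjusted p = 0.242) or without LATS1/2-KO replicate 2 (edgeR adjusted p = 0.164). The 3 genes with the most similar pattern to *Gpx3* were *Malat1* (r = 0.782), *Agtr1a* (r = 0.781) and *Piezo2* (r = 0.742).

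*Gpx1*, the ubiquitous cytosolic glutathione peroxidase, passed in none of the 5 tested lineages by edgeR with TMM, where unadjusted p was at least 0.05 in each, and by DESeq2 likewise. It measured 344, 355, 431 and 409 CPM in luminal ER- cells, where the log2 fold change was -0.10 ± 0.10 with TMM (SE, edgeR adjusted p = 0.429) but 0.27 with plain library totals (edgeR adjusted p = 0.0469). Its level was 409, 456, 515 and 431 CPM in luminal ER+ cells and 622, 564, 415 and 497 CPM in endothelial cells. Macrophages read 1161 and 1082 CPM in LATS1/2-KO, and their CTL sums, 1527 and 1920 CPM, held 35 and 84 UMIs from 4 and 7 cells with the free RNA shares given for *Mt1*.

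**Figure D2:**
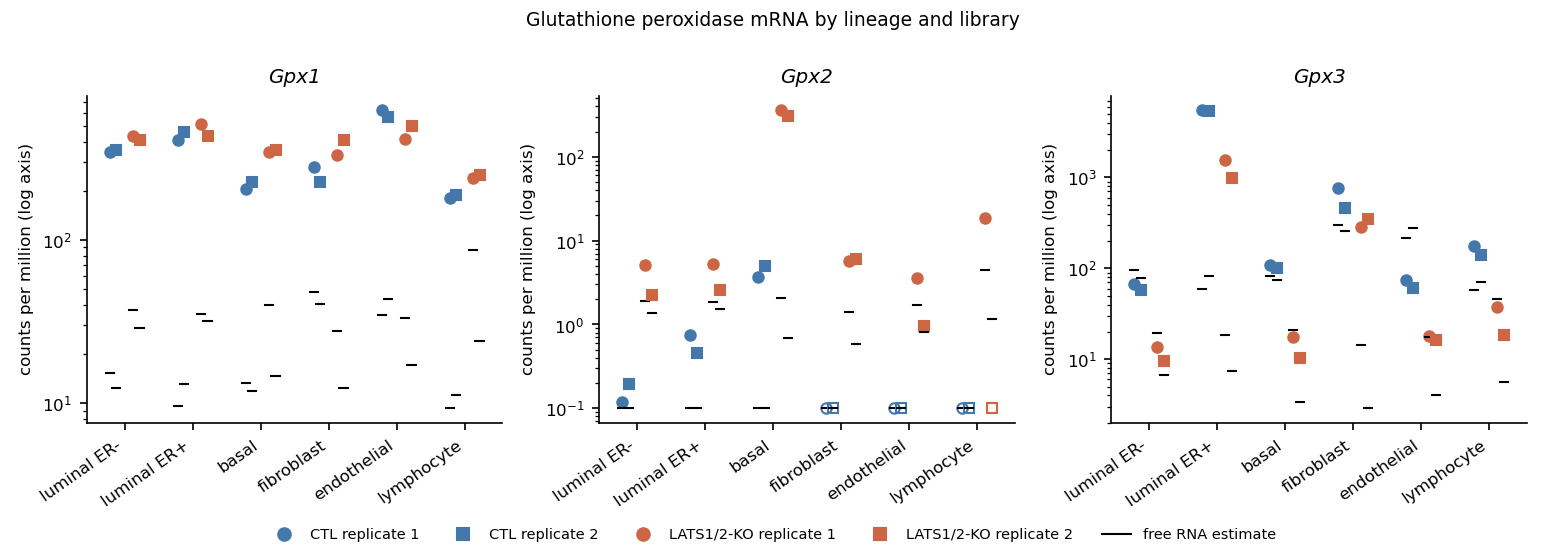
*Gpx1*, *Gpx2* and *Gpx3* in UMIs per 1000000 (CPM) on a log axis, for 6 lineages and 4 libraries (circles replicate 1, squares replicate 2, blue CTL, orange LATS1/2-KO). Open symbols stand for 0 UMIs and are drawn at 0.1, and black bars give the free RNA estimate, drawn at 0.1 where lower. *Gpx2* stands out in LATS1/2-KO basal cells (357 and 310 CPM) and *Gpx3* in luminal ER+ cells (5441 and 5317 CPM in CTL).

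*Nqo1*, a quinone reductase widely used as a readout of NRF2, was highest in CTL luminal ER- cells and far lower in those of LATS1/2-KO glands. It read 82.4, 90.2, 9.91 and 9.36 CPM, and the log2 fold change was -3.53 ± 0.12 (SE, edgeR adjusted p = 3.26e-06). All measured values were above the free RNA estimate. In luminal ER+ cells its level was low in both groups, 12.8 and 11.98 CPM against 2.30 and 4.57 CPM on 10 and 7 UMIs, and the log2 fold change of -2.10 ± 0.30 passed (SE, edgeR adjusted p = 0.00455). In basal cells *Nqo1* read 14.8, 29.8, 10.7 and 12.9 CPM, and in endothelial cells 28.0, 46.6, 18.1 and 28.5 CPM, where LATS1/2-KO replicate 2 lay above CTL replicate 1 and no call was made (edgeR adjusted p = 0.489).

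*Hmox1*, which opens the haem ring and is induced by haem and by oxidants, fell in luminal ER- cells, and its largest rises were outside the luminal cells. Its level in luminal ER- cells was 61.6, 53.0, 46.9 and 39.9 CPM, with a log2 fold change of -0.77 ± 0.13 (SE, edgeR adjusted p = 0.00182). In luminal ER+ cells it was 25.7, 23.4, 38.8 and 32.0 CPM, with a log2 fold change of 0.51 ± 0.15 (SE, edgeR adjusted p = 0.0458) that did not pass by DESeq2 (adjusted p = 0.165), with free RNA subtracted (edgeR adjusted p = 0.108), or without either CTL replicate or LATS1/2-KO replicate 1 (edgeR adjusted p = 0.0652 to 0.369). Endothelial cells went from 14.0 and 46.6 CPM (3 and 10 UMIs) to 188 and 132 CPM, a log2 fold change of 2.45 ± 0.42 (SE, edgeR adjusted p = 0.00668), and basal cells read 14.8, 19.9, 103 and 97.0 CPM. Fibroblasts read 139, 73.0, 137 and 227 CPM, with overlapping groups.

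*Gclm* and *Gclc*, the subunits of the glutathione-forming ligase, were higher in ER+ than in ER- luminal cells of CTL glands, and this gap narrowed in LATS1/2-KO. *Gclm* measured 33.4, 38.4, 85.8 and 78.4 CPM in luminal ER- cells, a log2 fold change of 0.83 ± 0.11 (SE, edgeR adjusted p = 0.000673). It measured 177, 206, 108 and 88.7 CPM in luminal ER+ cells, a log2 fold change of -0.98 ± 0.14 (SE, edgeR adjusted p = 0.00419). *Gclc* measured 16.6, 16.6, 22.6 and 30.1 CPM in luminal ER- cells, where the log2 fold change of 0.30 ± 0.15 with TMM did not pass (SE, edgeR adjusted p = 0.113). It did with library totals, at 0.67 (edgeR adjusted p = 0.00627), and without LATS1/2-KO replicate 1, at 0.46 (edgeR adjusted p = 0.012). In luminal ER+ cells *Gclc* measured 96.0, 76.9, 61.4 and 51.5 CPM, a log2 fold change of -0.64 ± 0.16 (SE, edgeR adjusted p = 0.0283), which did not pass without CTL replicate 1 or without either LATS1/2-KO replicate (edgeR adjusted p = 0.0639 to 0.109). In fibroblasts and endothelial cells neither gene passed (edgeR adjusted p = 0.0679 to 0.927), and *Gclc* did without LATS1/2-KO replicate 1 in both (edgeR adjusted p = 0.00511 and 0.0412).

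*Txnrd1*, which keeps thioredoxin reduced, stood at 146, 139, 147 and 145 CPM in luminal ER- cells, where plain levels were nearly alike. The log2 fold change was -0.33 ± 0.09 with TMM (SE, edgeR adjusted p = 0.0191) and 0.04 with library totals (edgeR adjusted p = 0.739), and with TMM it did not pass without CTL replicate 1 or 2 (edgeR adjusted p = 0.16 and 0.0746). In luminal ER+ cells it measured 138, 136, 117 and 99.2 CPM and did not pass (edgeR adjusted p = 0.0566), although it did without LATS1/2-KO replicate 1 (edgeR adjusted p = 0.0464). Basal cells read 62.9, 94.4, 128 and 130 CPM, described without a test.

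**Figure D3:**
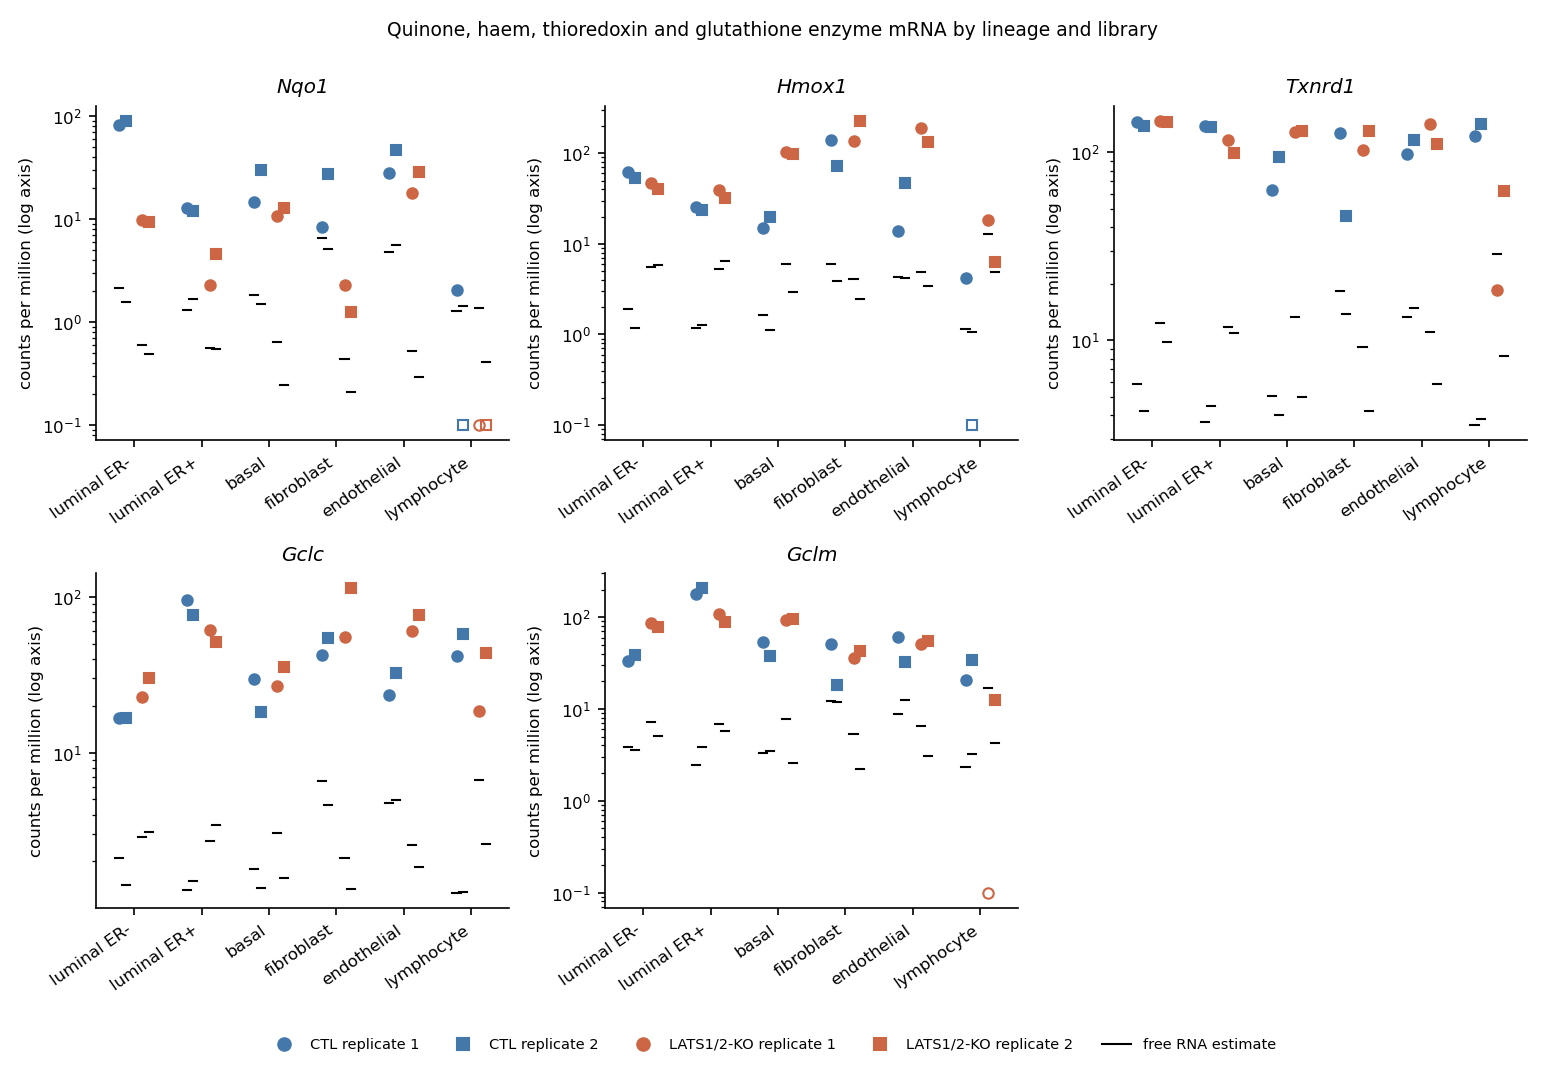
*Nqo1*, *Hmox1*, *Txnrd1*, *Gclc* and *Gclm* in UMIs per 1000000 (CPM) on log axes, for 6 lineages and 4 libraries (circles replicate 1, squares replicate 2, blue CTL, orange LATS1/2-KO, black bars the free RNA estimate, open symbols 0 UMIs drawn at 0.1). *Nqo1* drops from 82.4 and 90.2 to 9.91 and 9.36 CPM in luminal ER- cells, and *Gclm* rises in luminal ER- but is lower in luminal ER+ cells of LATS1/2-KO glands.

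Counted by lineage, 4 of 10 genes rose and 4 fell in luminal ER- cells. Of all 13330 genes tested there, 30.4% rose and 28.0% fell, and 52.0% of the calls were upward, or 74.7% with library totals, where 6 of the 10 rose and 3 fell. Among luminal ER+ cells 4 of 9 rose and 3 fell, beside 14.7% and 14.0% of 12543 genes. Thinned to 2000 UMIs, *Nqo1* and *Gclc* did not pass there (edgeR adjusted p = 0.0609 and 0.0782), and *Gclm* did. Fibroblasts had 2 of 8 higher and 0 lower by edgeR, beside 2.00% and 2.15% of 8169 genes, with 1 lower at an unadjusted p under 0.05 and 0 by DESeq2. Without CTL replicate 1 the count of higher genes in fibroblasts was 0, and without LATS1/2-KO replicate 1 it was 5. Of 9 genes tested in endothelial cells, 3 rose and 1 fell, where 3.24% and 3.87% of 6905 genes did. In lymphocytes 2 of 5 rose and 1 fell, beside 1.35% and 0.348% of 2585 genes. *Gpx3* was among the 4 that fell in luminal ER- cells and the only gene that fell in endothelial cells and lymphocytes. With free RNA subtracted, 4 of 9 rose and 3 fell in luminal ER- cells, and 3 of 9 and 3 in luminal ER+ cells. Fibroblasts then had 2 of 8 higher and 0 lower, endothelial cells 3 of 8 and 0, and lymphocytes 0 of 4 and 0. In basal cells 16.9% of 8396 genes rose and 16.7% fell, a split of 50.3% upward calls, or 60.5% with library totals, and no count of the 10 is read against this. The interaction of lineage and genotype passed for 4 of 9 genes, *Nqo1*, *Hmox1*, *Gclc* and *Gclm*, beside 13.6% of 14114 genes in either direction. Of those calls 46.1% were upward, or 15.7% with library totals. Both lineages came from the same mice, and with the mouse as block 3133 genes were called in place of 1919, these 4 among them. Only *Gclm* passed in this comparison with each library left out in turn.

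**Figure D4:**
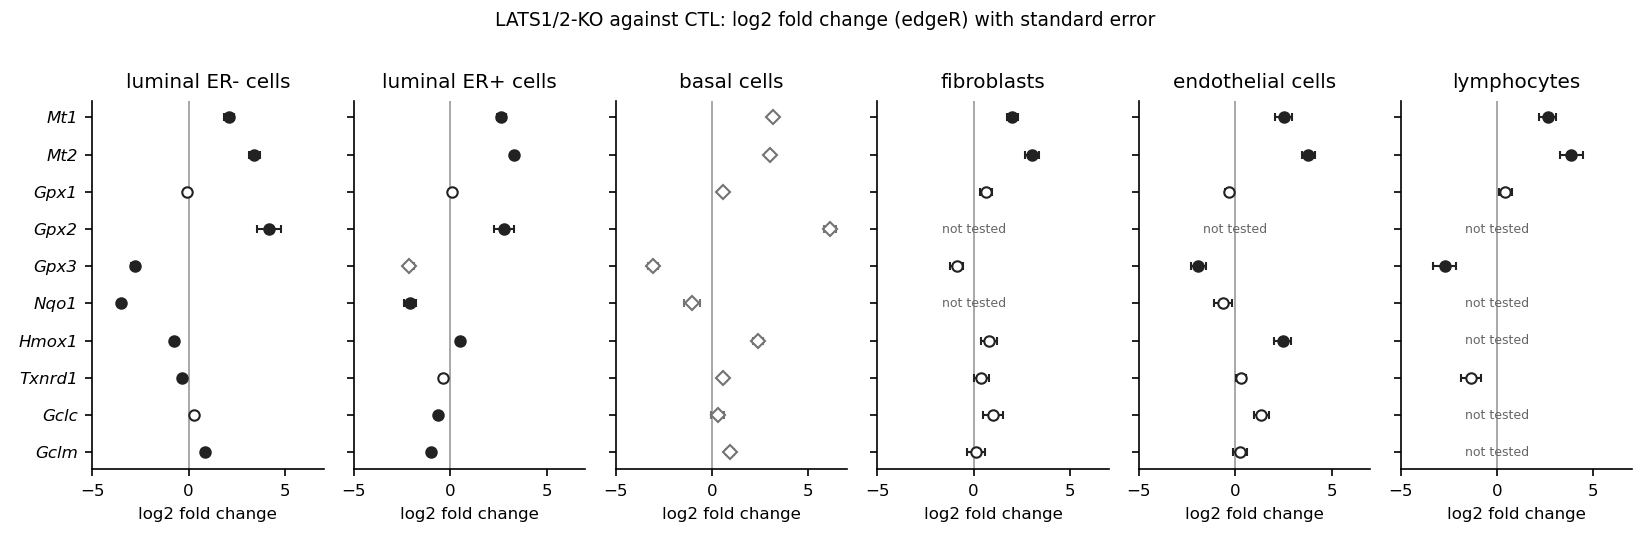
Log2 fold change of LATS1/2-KO against CTL with its standard error for the 10 genes in 6 lineages, from edgeR with 2 mice per group. Filled circles passed at an adjusted p under 0.05, open circles did not, and open diamonds are descriptions with no test. *Mt1* and *Mt2* lie to the right of 0 in every lineage, while *Gclm* is at 0.83 in luminal ER- and -0.98 in luminal ER+ cells.

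EYFP divided the luminal ER- cells of LATS1/2-KO glands into cells with and without a reporter UMI, within the same 2 mice. There were 322 and 386 EYFP+ cells and 1547 and 1535 EYFP- cells, and EYFP+ cells were deeper (median 13463 and 15048 UMIs against 6951 and 7305 UMIs). An EYFP- cell may be one whose reporter RNA was missed. The metallothioneins were lower in EYFP+ cells of both mice. *Mt1* read 465 against 651 CPM in replicate 1 and 731 against 1117 CPM in replicate 2, a log2 difference of -0.57 ± 0.06 (SE, edgeR with mouse as block, adjusted p = 2.14e-16). *Mt2* read 113 against 153 CPM and 209 against 315 CPM, a log2 difference of -0.54 ± 0.06 (SE, edgeR adjusted p = 3.54e-13). With all cells thinned to the same depth the differences were -0.65 and -0.63. No free RNA estimate was set beside the EYFP classes, and thinning does not remove free RNA. The mean *Mt1* level of the whole LATS1/2-KO libraries was 1513 and 2303 CPM, above both classes. The part of free RNA in these differences was not tested. Both classes lay above the CTL luminal ER- level of 117 and 173 CPM for *Mt1*. Among *Krt8*-high LATS1/2-KO cells with neither luminal marker level, 41.6% and 57.1% were EYFP+, against 17.2% and 20.1% of luminal ER- cells. Those cells are outside the luminal ER- sums. Their *Mt1* read 333 and 382 CPM in EYFP+ and 475 and 582 CPM in EYFP- cells, without a test.

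*Nqo1* was also lower in EYFP+ cells, at 7.01 against 10.96 CPM and 7.20 against 10.4 CPM (log2 difference -0.60 ± 0.20, SE, edgeR adjusted p = 0.0143), on 34 and 47 EYFP+ UMIs, and did not pass by DESeq2 (adjusted p = 0.44) or after thinning (edgeR adjusted p = 0.235). In all, 0 of the 10 genes were higher and 3 lower in EYFP+ cells, beside 17.8% and 17.0% of 12328 genes. The count of 0 higher was the same at an unadjusted p under 0.05 and by DESeq2. *Gclm* differed little, 89.7 against 84.4 CPM and 78.1 against 78.6 CPM. Of the stress response genes, 2 were higher and 13 lower of 17 in EYFP+ cells, beside the same 17.8% and 17.0% of all genes, and their part in the metallothionein difference was not tested. Without the mouse as block 0 of the 10 passed by edgeR (adjusted p = 0.168 to 0.424 for these 3).

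**Figure D5:**
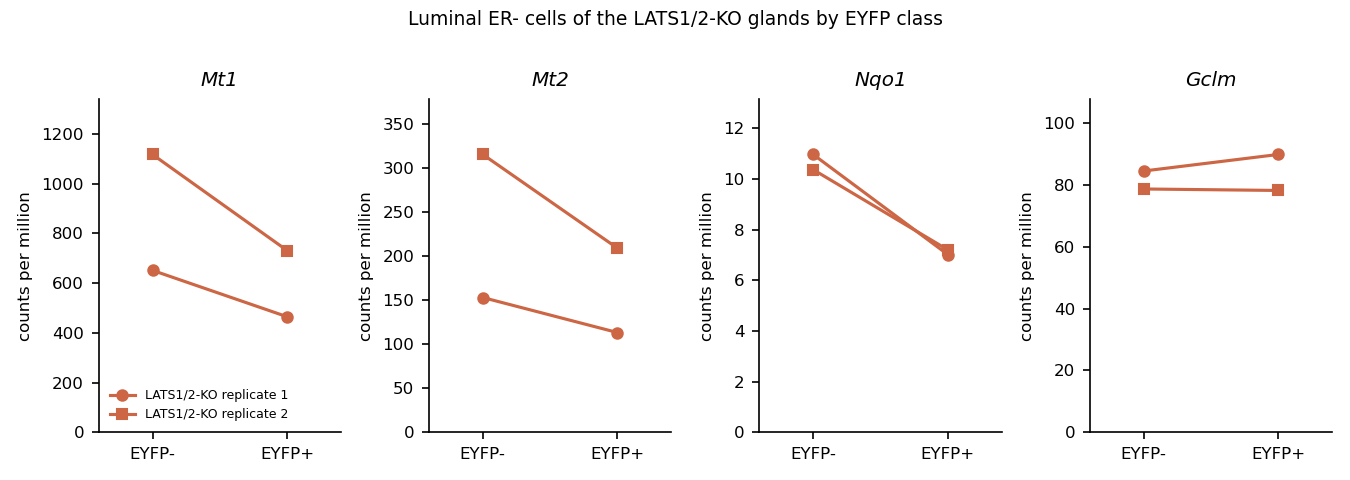
*Mt1*, *Mt2*, *Nqo1* and *Gclm* in UMIs per 1000000 (CPM) on linear axes from 0, in EYFP- and EYFP+ luminal ER- cells of the 2 LATS1/2-KO mice, joined by mouse. *Mt1* falls from 651 to 465 and from 1117 to 731 CPM, and *Gclm* stays between 78.1 and 89.7 CPM.

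Further genes of glutathione, thioredoxin, iron, NADPH, zinc and selenium handling moved in both directions. Of 106 listed genes 105 were found, 4 of them under an older symbol. In luminal ER- cells 26 of 97 tested rose and 33 fell, beside 30.4% and 28.0% of all genes, with a median log2 fold change of -0.04 beside 0.01 for all genes. *Ephx1*, which encodes a microsomal epoxide hydrolase, fell from 94.8 and 118 CPM to 12.2 and 16.4 CPM (log2 fold change -3.26 ± 0.17, SE, edgeR adjusted p = 1.34e-05). *Ggt1*, a cell surface enzyme that breaks down glutathione, fell from 6.12 and 4.94 CPM to 0.60 and 0.48 CPM (log2 fold change -3.71 ± 0.29, SE, edgeR adjusted p = 5.73e-05). *Mgst2*, a membrane glutathione transferase, was at 0.24 and 0.29 CPM against 1.97 and 4.30 CPM (edgeR adjusted p = 0.00151). *Sod3*, the extracellular superoxide dismutase, had no UMI in CTL and 48 in LATS1/2-KO luminal ER- cells. The LATS1/2-KO level was 1.23 CPM over the group, at least 18.7-fold higher against a floor of 3 UMIs over the CTL group. Fibroblasts of the same LATS1/2-KO libraries read 199 and 192 CPM of *Sod3* with TMM scaling. No free RNA estimate was set beside *Sod3*, and the part of free RNA in its luminal ER- reading was not tested.

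In luminal ER+ cells 22 of 98 listed genes rose and 19 fell, beside 14.7% and 14.0% of all genes, with a median of -0.13 beside -0.02 for all genes. *Mt3*, another metallothionein, measured 0.21, 0.50, 11.03 and 13.0 CPM, a log2 fold change of 4.95 ± 0.44 (SE, edgeR adjusted p = 0.000935). *Slc39a8*, a zinc importer, measured 1.97, 0.45, 12.6 and 13.0 CPM, a log2 fold change of 3.35 ± 0.60 (SE, edgeR adjusted p = 0.00887). *Maff*, a small MAF protein that pairs with NRF2, fell from 154 and 141 CPM to 42.05 and 51.5 CPM (edgeR adjusted p = 0.000523). *Ephx1* fell here as well, from 19.7 and 25.4 CPM to 4.14 and 7.18 CPM (edgeR adjusted p = 0.00304). *Slc39a8* and *Maff* moved the same way in luminal ER- cells. With TMM scaling they read 2.50, 1.43, 14.0 and 10.0 CPM and 464, 435, 68.0 and 71.2 CPM there.

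*Slc39a14*, a zinc and iron importer, rose in both stromal lineages. It measured 25.3, 9.12, 107 and 162 CPM in fibroblasts (log2 fold change 2.87 ± 0.51, SE, edgeR adjusted p = 0.0186) and 28.0, 32.6, 113 and 172 CPM in endothelial cells (2.28 ± 0.39, SE, edgeR adjusted p = 0.00616). With TMM scaling *Slc39a14* also read higher in basal cells, at 28.2, 24.0, 68.8 and 74.8 CPM, given as a description. Luminal ER- cells read 45.0, 49.9, 46.7 and 47.1 CPM on that scale. Among fibroblasts 3 of 80 listed genes rose and 2 fell, beside 2.00% and 2.15% of all genes, with a median of -0.12 beside 0.07 for all genes. *Prdx6*, a peroxiredoxin, rose from 194 and 119 CPM to 465 and 437 CPM (edgeR adjusted p = 0.0276), and the glutathione transferases *Gstm1* and *Gstt1* fell from 456 and 401 CPM to 44.7 and 107 CPM and from 186 and 173 CPM to 14.9 and 30.5 CPM (edgeR adjusted p = 0.0194 and 0.00767).

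Endothelial cells had 2 listed genes higher and 3 lower of 70, beside 3.24% and 3.87% of all genes, with a median of 0.06 beside 0.02 for all genes. *Akr1b8*, an aldo-keto reductase, rose from 0 and 4.66 CPM to 35.3 and 35.2 CPM (edgeR adjusted p = 0.021), with no fold given because CTL held a single UMI. *Ephx1* fell from 70.1 and 121 CPM to 6.33 and 6.65 CPM, and *Sod3* from 18.7 and 28.0 CPM to 3.62 and 2.85 CPM (edgeR adjusted p = 0.000852 and 0.029). Of 30 listed genes tested in lymphocytes, edgeR called 0, beside 1.35% and 0.348% of all genes, with 4 higher and 1 lower at an unadjusted p under 0.05 and 0 by DESeq2.

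Basal cells had 20 of 85 listed genes higher and 14 lower at the same threshold, beside 16.9% and 16.7% of all genes, with a median of 0.18 beside 0.00 for all genes. Nothing is read from these counts, since the 10 genes were chosen on this contrast, and values are given as a description. *Gsr*, which regenerates reduced glutathione, measured 16.6, 19.9, 156 and 124 CPM. *Srxn1*, which repairs peroxiredoxins, measured 1.85, 3.31, 26.8 and 10.9 CPM, on 3 UMIs over both CTL libraries. *Ggt1* measured 55.5, 23.2, 7.37 and 3.46 CPM and *Gstt1* 75.8, 97.7, 16.1 and 7.42 CPM.

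Between EYFP+ and EYFP- luminal ER- cells, 17 of 96 listed genes were higher and 27 lower in EYFP+ cells, beside 17.8% and 17.0% of all genes, with a median of -0.02 beside -0.01 for all genes. *Chac1*, which degrades glutathione, was higher (2.83 and 1.83 CPM in EYFP- against 7.43 and 4.14 CPM in EYFP+ cells, edgeR adjusted p = 0.000411), as was *Gpx8*, a glutathione peroxidase of the endoplasmic reticulum (23.0 and 19.7 CPM against 34.7 and 37.2 CPM, edgeR adjusted p = 1.35e-08). *Gstm1* was lower (16.3 and 23.9 CPM against 8.46 and 10.6 CPM, edgeR adjusted p = 2.57e-09), and so was *Mgst2* (2.39 and 5.57 CPM against 0.83 and 1.53 CPM, edgeR adjusted p = 0.000182).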

How the data were processed

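Raw UMI counts per gene and cell were deposited by the authors as filtered matrices, 1 for each of 4 mice, made with Cell Ranger on mm10. The version is 6.1.2 in the file header and 3.1.0 in the submitters' processing notes. Barcodes with over 500 detected genes and under 20% mitochondrial UMIs were kept, 18200 of 20324. Lineages were gated on marker sums per 10000 UMIs, with limits and the markers entering each gate settled after marker levels had been seen. No doublet caller was run. The 223 cells passing 2 or more gates and 1148 passing none were left out. Counts were summed per lineage and library and tested with edgeR 4.0.16 (quasi-likelihood, TMM, filterByExpr). The scripts were tested on simulated data. The 2 samples of each group are separate mice, and EYFP classes were paired within mouse. Free RNA was approximated by each library's own summed cells, since empty droplets were not used here, scaled by *Col1a1*, *Col1a2* and *Col3a1* in luminal cells and by *Wfdc18*, *Csn3* and *Plet1* in the other lineages. Precision is limited by 2 mice per group, and intervals cover counting error only. Alternatives were DESeq2 1.42.0, RLE factors, library totals, no filter, a replicate block, each library left out, under 10% mitochondrial UMIs, Seurat 5.3.0 clusters, free RNA subtraction and thinning. Named further genes were, in each comparison, the 2 highest and 2 lowest fold changes past the threshold without overlap, and the 3 genes most correlated with *Mt1*, *Gpx2* and *Gpx3* at a mean of at least 10 CPM. The members and lists were chosen with earlier results of these data known.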

Additional observations from a re-analysis of the deposited data

Results flagged for a closer look

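The log2 fold change of LATS1/2-KO against CTL differed between luminal ER+ and luminal ER- cells for 4 of 9 genes, by the interaction term of edgeR over 8 sums from 4 mice. Of all 14114 genes tested, 13.6% passed in either direction. Upward calls made up 46.1% of these, and 15.7% of the calls with library totals. The log2 fold change in ER+ cells minus that in ER- cells was 1.38 ± 0.34 for *Nqo1* (SE, edgeR adjusted p = 0.0266), which fell in both lineages and less in ER+ cells. It was 1.25 ± 0.22 for *Hmox1* (edgeR adjusted p = 0.00673), -0.97 ± 0.24 for *Gclc* (edgeR adjusted p = 0.0274) and -1.85 ± 0.20 for *Gclm* (edgeR adjusted p = 0.000663). The *Gclm* difference passed with each library left out. *Nqo1* lost the call without CTL replicate 2 or either LATS1/2-KO replicate, *Gclc* without CTL replicate 1 or either LATS1/2-KO replicate, and *Hmox1* without LATS1/2-KO replicate 1. With cells thinned to 2000 UMIs, *Nqo1* and *Gclc* also lost it (edgeR adjusted p = 0.136 and 0.0952). LATS1/2-KO replicate 2 held 143 luminal ER+ cells.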

How the results depend on the processing

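With 2 mice per group, calls rest on few libraries, and depth limits *Gpx2* in luminal ER+ cells, fibroblasts and endothelial cells, where each sum held at most 29 UMIs. *Mt1* and *Mt2* were higher in luminal ER- and ER+ cells, and passed, under every alternative run there. Of the values of the 10 genes under alternatives, 742 kept direction and, where tested, side of the threshold. Values given without a test were counted there if they moved by less than the spread. Of the rest, 49 no longer passed, 14 newly passed and 20 changed sign. Another 9, given without a test, moved by more than the spread. The cause was not tested where none is named. The count of genes called was 7783 in luminal ER-, 3608 in luminal ER+, 339 in fibroblasts, 491 in endothelial cells, 44 in lymphocytes, 2823 in basal cells, 4288 for EYFP and 1919 for the interaction. Thinning leaves fewer UMIs, and the counts were then 4950, 1435, 214, 260, 7, 1372, 1311 and 598. DESeq2 called 266 genes in endothelial cells, 1282 in basal cells and 1016 for EYFP. Without the low-count filter 880 were called in fibroblasts, 290 in endothelial cells and 89 in lymphocytes. With free RNA subtracted 13 were called in lymphocytes, and clusters gave 3049 for the interaction.

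The replicate numbers do not pair the mice (correlation of same-numbered deviations 0.0127 to 0.0675 over 6 lineages). With a replicate block 612 genes were called in fibroblasts, 81 in lymphocytes and 3133 for the interaction, and in luminal ER+ cells *Hmox1* lost its call and *Txnrd1* newly passed, with no other call of the 10 changed. EYFP is paired within mouse, and with no replicate block 147 genes were called. With library totals in place of TMM, chosen after seeing the data, the interaction had 3240 calls, *Gpx1* was 0.27 and *Txnrd1* 0.038 in luminal ER- cells, and the *Gpx1* interaction was -0.13.

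Leaving out 1 library gave 1716 (without LATS1/2-KO replicate 1) to 2854 calls in luminal ER+ cells, 26 (without CTL replicate 1) to 676 (without LATS1/2-KO replicate 2) in fibroblasts, 381 to 791 (without CTL replicate 1) in endothelial cells, and 381 (without LATS1/2-KO replicate 1) to 1196 for the interaction. The log2 fold change then ranged from -0.11 to 0.22 for *Gpx1* in luminal ER+ cells, from -0.21 to 1.37 for *Gclm* in fibroblasts, from -0.17 to 0.76 for *Gclm* in endothelial cells and from -0.044 to 0.71 for *Gclc* in basal cells. The interaction ranged from -0.00047 to 1.19 for *Mt1*, from -0.33 to 0.28 for *Mt2* and from -0.22 to 0.075 for *Txnrd1*. Clusters in place of gates gave -0.26 and -0.52 for *Gclm* in fibroblasts and endothelial cells and 0.21 for the *Mt2* interaction. Thinning gave -0.81 for *Hmox1* by EYFP, which then passed, and interactions of 2.79 for *Gpx2* and 0.21 for *Txnrd1*. Without the filter *Txnrd1* by EYFP was -0.0035. Thinned to 2000 UMIs, *Mt1* was seen in 16.6%, 22.7%, 56.5% and 74.7% of luminal ER- cells, *Gpx2* in 0%, 33.7% and 35.6% of basal cells of CTL replicate 2 and the LATS1/2-KO replicates, and *Gpx3* in 95.3%, 94.8%, 47.1% and 35.2% of luminal ER+ cells. A luminal ER- gate at 20 per 10000, chosen after seeing the data, changed no call of the 10 genes.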
